A study of Mus musculus with 6 samples.

Results

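The p200 genes of the mouse are a family of interferon-inducible genes that lie side by side on chromosome 1, and 5 of them are described here: Mndal, Ifi203, Ifi204, Ifi205 and Aim2. Members were all probe sets (groups of array probes that report 1 transcript) whose annotation holds exactly 1 of these symbols, which gave 5 of the 45101 probe sets on the array and 4 of the 18193 genes that have a probe set of their own. Mndal had 2 of them, Ifi203, Ifi204 and Aim2 had 1 each, and Ifi205 had none of its own, since the probe sets that list it also list other p200 genes. The genes were selected on a measured value, the level of Mndal below background on the array of endothelial cells after transverse aortic constriction, so every difference between the 2 endothelial arrays is given as a description only.

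The arrays hold sorted left ventricular cells. The mice were Black Swiss males, 8 to 10 weeks old, 3 with transverse aortic constriction (TAC, a narrowing of the aorta that loads the ventricle with pressure) and 3 with a sham operation, 1 week after surgery. The 6 groups, with 1 array each, are Tie2cre lineage traced fibroblasts after TAC and after sham, fibroblasts outside the Tie2cre lineage (untraced) after TAC and after sham, and endothelial cells after TAC and after sham. In Tie2cre mice the promoter of Tek, an endothelial receptor gene, drives Cre, and the lineage holds cells in which that promoter is or was active in an ancestor. The labels do not say whether RNA of the 3 mice was pooled or whether the arrays of a surgery share mice. With different mice at each surgery and 1 array per group, an effect of TAC and any other difference between the mice, genotype included, cannot be told apart. Black Swiss is an outbred stock, so the mice need not be alike in genotype.

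The p200 proteins carry the HIN domain, which binds DNA, and most of them also a pyrin domain, through which they join other proteins of innate immunity. Aim2 senses double-stranded DNA in the cytosol and assembles an inflammasome with the adaptor Pycard and Casp1. Ifi204, the mouse gene usually set beside human IFI16, has been linked to DNA sensing through Sting1 and to growth control, and Ifi202b, which lacks the pyrin domain, can hold Aim2 back. Transcription of the family is induced by interferons, which act through factors that bind the interferon-stimulated response element. Mndal is named for its likeness to MNDA, a nuclear antigen of human myeloid cells.

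In the RefSeq annotation of GRCm38.p6, the 13 p200 genes listed here span chr1:173349547-174031755, 682 kb in all, with Aim2 at one end and Ifi205 at the other. Mndal lies at chr1:173857215-173880382, Ifi203 at chr1:173920400-173942866, Ifi204 at chr1:173747293-173767069, Ifi205 at chr1:174011998-174031755 and Aim2 at chr1:173349547-173466040. The RefSeq table of start regions (300 bases around a gene start, most of them before it) held 4 of the 5 members, and Ifi204 is not shown. The window of the upstream Mndal start, chr1:173880138-173880437 on the minus strand, is printed because Mndal carries the largest difference of the family. Capitals mark GAAANNGAAA, the core letters of the interferon-stimulated response element, searched on both strands. A second annotated Mndal start has a window with the core on the other strand.
Mndal start region: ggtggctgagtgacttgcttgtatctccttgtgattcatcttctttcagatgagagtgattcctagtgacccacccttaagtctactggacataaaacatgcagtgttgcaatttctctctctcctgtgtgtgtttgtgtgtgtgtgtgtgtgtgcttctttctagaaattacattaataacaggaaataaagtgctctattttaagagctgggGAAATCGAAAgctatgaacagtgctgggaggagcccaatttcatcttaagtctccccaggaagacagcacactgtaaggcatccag

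The same core stood in the start regions of 9 of 12 p200 genes in the table, against 1079 of 27025 genes (3.99%) in the whole table and 12 of 18 genes of the interferon-stimulated list. Among the members it was in the windows of Mndal, Ifi203 and Ifi205 and not in the single window of Aim2. The stretches of 60 bases around it in Mndal, Ifi203, Ifi205 and Ifi207 are set side by side to compare their letters. All are on the minus strand and 5′ to 3′, with the core in capitals. They lie at chr1:173880189-173880248 (Mndal), chr1:173942493-173942552 (Ifi203), chr1:174031855-174031914 (Ifi205) and chr1:173741816-173741875 (Ifi207).
Mndal: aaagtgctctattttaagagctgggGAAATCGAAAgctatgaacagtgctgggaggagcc
Ifi203: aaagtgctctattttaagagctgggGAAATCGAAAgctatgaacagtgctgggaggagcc
Ifi205: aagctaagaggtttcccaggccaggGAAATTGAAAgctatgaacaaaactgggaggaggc
Ifi207: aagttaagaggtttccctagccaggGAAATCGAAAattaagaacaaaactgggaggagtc
The Mndal and Ifi203 stretches had the same letter at all 60 positions. Ifi205 matched the Mndal letters at 40 of 60 positions and Ifi207 at 39 of 60. Of the stretches not printed, Ifi214 matched at 42, Ifi211 at 41, and Ifi206, Ifi208 and Ifi213 at 34 each. Over the whole windows, Mndal and Ifi203 were identical at 282 of 289 aligned bases (97.6%), with 10 further bases in gaps. These counts describe the letters of the start regions and say nothing of which factor binds there or how alike the transcripts are. Signal of near-identical copies can be mixed on an array, and a probe set whose name ends in _x_at, as the brighter Mndal set 1452231_x_at does, may also bind transcripts of other genes.

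All levels and differences that follow are log2 of the probe set intensity, and a difference is TAC minus sham unless said otherwise. The deposited values carry no detection call, so each level is set beside the 80 probe sets of olfactory and vomeronasal receptor genes, whose main site of use is the nose. The 95th percentile of these silent probe sets lay between 5.65 and 6.09 on the fibroblast arrays and at 6.41 (TAC) and 7.08 (sham) on the endothelial arrays. Array medians of all probe sets lay between 6.74 and 6.85, and 0 pairs of arrays held identical values. Fewer cells of a type and less RNA per cell cannot be told apart in such sorted bulk samples.

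The labelled cell types carried their own markers: the summed intensity of 10 endothelial markers was 87846 and 104122 on the endothelial arrays after TAC and sham, and 6164 to 8731 on the fibroblast arrays. The summed intensity of 10 fibroblast markers was 103010 to 116613 on the fibroblast arrays, but 47051 on the endothelial TAC array against 3249 on the endothelial sham array, with 10 of 10 detected markers at least 2-fold higher there. Of 16 macrophage and monocyte markers, 3 (Ptprc, Adgre1 and Itgam) stayed below the silent probe sets' 95th percentile on all 6 arrays, while Lyz2, Laptm5 and C1qb lay above it on all 6. The summed list ran from 1626 to 3041 on the fibroblast arrays and was 2802 and 1732 on the endothelial arrays after TAC and sham. In endothelial cells 3 of 9 detected markers were at least 2-fold higher after TAC (10.9% of all detected genes were) and 0 lower (1.83%). In both fibroblast populations 0 of 10 were higher (4.33%) and 1 lower (1.79%). Of 8 lymphocyte markers, 6 stayed below the silent probe sets' 95th percentile on all 6 arrays. The 8 cardiomyocyte markers summed to 4811 (TAC) and 10683 (sham) on the endothelial arrays, and to 1180 to 1641 in fibroblasts. In endothelial cells 5 of 7 detected ones were at least 2-fold lower after TAC (1.83% of all detected genes were) and 0 higher. Of 8 mural markers, 2 were at least 2-fold lower there and 3 in both fibroblast populations (1.79%). The part of these cells in the p200 values was not tested.

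Mndal read lower after TAC in all 3 cell populations, and in endothelial cells it was at least 17.4-fold lower with the TAC level set at the silent probe sets' 95th percentile. The measured TAC level there lay below that percentile (6.41), and it is the value that chose the gene. On the brighter set, 1452231_x_at, endothelial cells stood at 2.99 after TAC against 10.53 after sham. Traced fibroblasts stood at 6.39 after TAC against 8.32 after sham, and untraced fibroblasts at 6.85 after TAC against 8.56 after sham. All 3 TAC arrays were lower than all 3 sham arrays, and the endothelial cells held both the highest and the lowest level of the 6.

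The second Mndal probe set, 1426906_at, whose name carries no such suffix, gave the same order between surgeries. It stood at 3.07 after TAC against 10.41 after sham in endothelial cells, at 3.79 against 6.76 in traced fibroblasts and at 3.48 against 7.45 in untraced fibroblasts. On this set all 3 TAC arrays, fibroblasts included, lay below the silent probe sets' 95th percentile, and all 3 sham arrays lay above it. The differences were -7.33 in endothelial cells, -2.97 in traced and -3.97 in untraced fibroblasts, against -7.54, -1.93 and -1.70 on the brighter set.

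**Figure D1:**
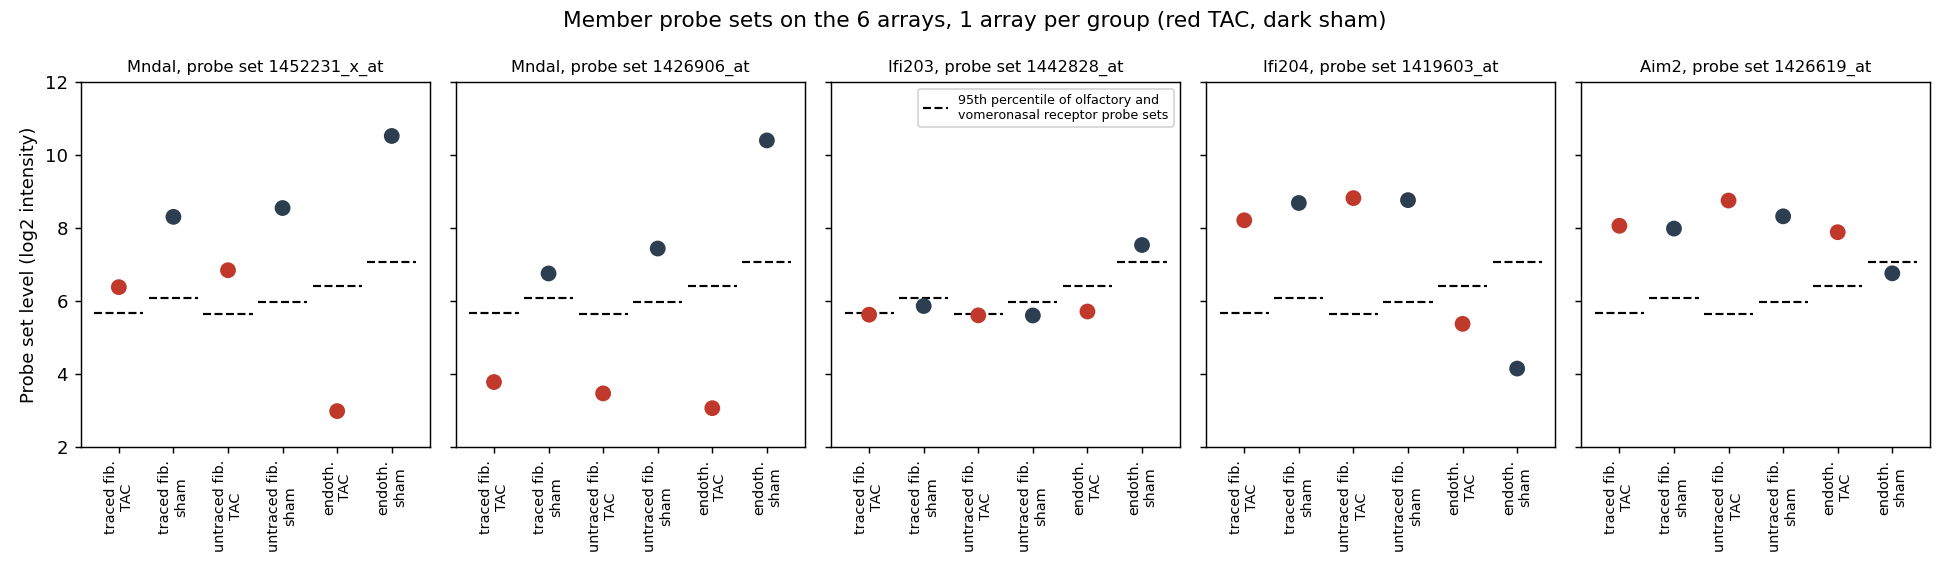
Levels (log2 intensity, y axis) of the 5 member probe sets on the 6 arrays (x axis), with TAC in red and sham in dark blue, 1 point per array, and dashed lines at the 95th percentile of olfactory and vomeronasal receptor probe sets on the same array. Both Mndal sets are lower on each TAC array than on its sham array, down to 2.99 and 3.07 in endothelial cells after TAC.

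Since a level below the silent probe sets has no size of its own, the differences of the second set were also taken against their 95th percentile on the TAC array. Mndal was then at least 16.0-fold lower in endothelial cells on that set. On the same footing it was at least 2.12-fold lower in traced and at least 3.48-fold lower in untraced fibroblasts. The brighter set stayed above that percentile in fibroblasts after TAC, with levels 3.80-fold lower in traced and 3.26-fold lower in untraced cells.

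The levels of Mndal on the brighter set ran, from high to low, through endothelial sham, untraced sham, traced sham, untraced TAC, traced TAC and endothelial TAC. At each surgery, the fibroblast populations differed by -0.46 after TAC and -0.24 after sham (traced minus untraced), beside a standard deviation of 0.29 for the sham lineage difference over all detected genes, and with 1 array per group no difference between neighbours in this order has an error. The Mndal level on the endothelial TAC array, the value that chose the gene, was also below that on every fibroblast array. Col1a1, the main fibrillar collagen gene, stood at 13.01 on the endothelial TAC array and 8.58 on the endothelial sham array. It stood at 13.58 to 14.01 in fibroblasts. The part of fibroblast RNA in the endothelial values was not tested.

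Among 11156 genes detected in endothelial cells (above the array's own median on at least 1 of the 2 arrays) Mndal had the lowest difference. The next lowest was that of Cyp26b1, a retinoic acid breakdown enzyme, at -2.96, and the median over these genes was 0.18. In fibroblasts, whose arrays were not the ones that chose the gene, Mndal ranked 55 from the lowest of 11622 detected genes by the mean of both populations (-1.81), beside a median of 0.05. At least 2-fold lower in both fibroblast populations were 1.79% of detected genes and at least 2-fold higher 4.33%. Of the 4 members measured, Mndal alone was among them, on each of its 2 probe sets, and Ifi203 was not detected in fibroblasts. TAC against sham was not tested: each population has 1 array per surgery, and the labels do not say that the populations of a surgery come from separate mice.

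**Figure D2:**
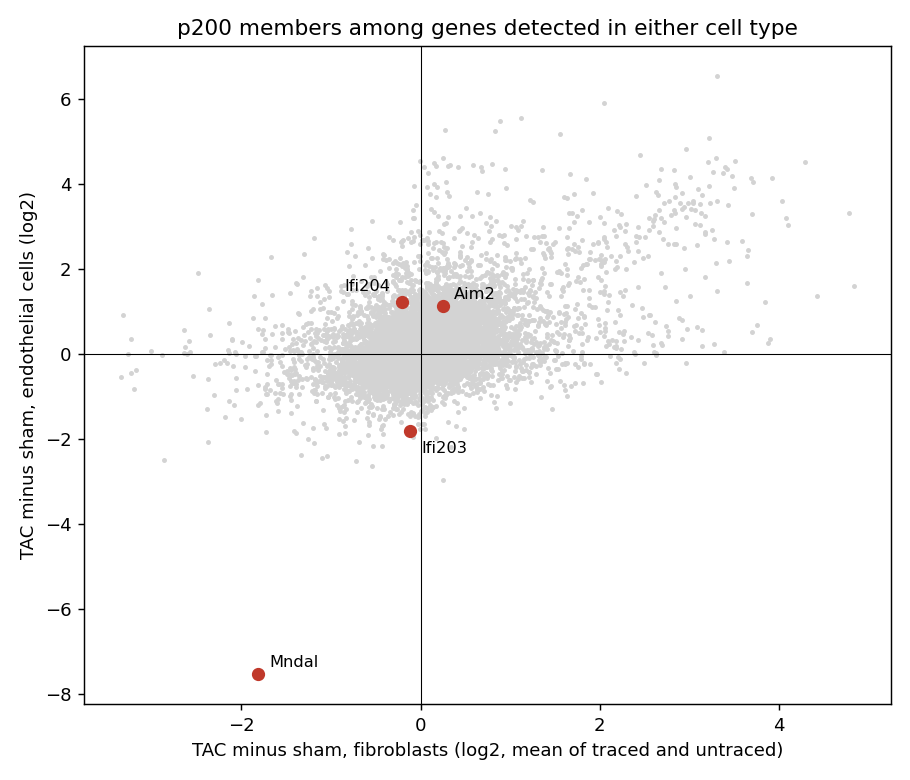
TAC minus sham (log2) in fibroblasts (x axis, mean of traced and untraced) and in endothelial cells (y axis), 1 grey point per gene detected in either cell type and red points for the 4 measured members. Mndal stands at -1.81 and -7.54, and the next lowest endothelial value among genes detected in endothelial cells is -2.96.

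Ifi203 is the neighbour whose start region nearly matches that of Mndal, and its single probe set with 1 symbol stood above the silent probe sets on 1 array. That set, 1442828_at, read 5.72 in endothelial cells after TAC against 7.54 after sham. In traced fibroblasts it read 5.64 after TAC against 5.87 after sham, and in untraced fibroblasts 5.62 against 5.61. The 4 fibroblast levels lay below the silent probe sets' 95th percentile and differed between surgeries by -0.24 and 0.00, so they could not be told from background. The endothelial difference was -1.82, or at least 2.19-fold lower when the TAC level, itself below background, is set at the silent percentile. The 3 probe sets that Ifi203 shares with a pseudogene and other loci read 8.65 to 10.46 in endothelial cells after TAC against 10.81 to 11.85 after sham, all above background, so the dim levels hold for 1442828_at and not for every set that lists the gene.

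Ifi204 read well above the silent probe sets in fibroblasts and below them in endothelial cells. Its probe set 1419603_at read 8.22 after TAC against 8.70 after sham in traced fibroblasts, and 8.83 against 8.77 in untraced fibroblasts. In endothelial cells it read 5.38 after TAC against 4.16 after sham, both below the silent probe sets' 95th percentile. The fibroblast differences were -0.47 and 0.06, in opposite directions, and the endothelial difference was 1.23 between dim values. On the same endothelial TAC array the fibroblast markers were higher too, and their part in the Ifi204 difference was not tested.

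Aim2, the inflammasome sensor, was present in fibroblasts and in endothelial cells after TAC. Its probe set 1426619_at read 8.07 after TAC against 7.99 after sham in traced fibroblasts, and 8.76 against 8.33 in untraced fibroblasts. In endothelial cells it read 7.89 after TAC against 6.77 after sham, where the sham level lay below the silent percentile of 7.08. The difference was 0.08 in traced and 0.43 in untraced fibroblasts and 1.13 in endothelial cells. At least 2-fold higher in endothelial cells were 10.9% of detected genes and at least 2-fold lower 1.83%. All 4 measured members were past 2-fold there, Mndal and Ifi203 lower and Ifi204 and Aim2 higher, although Ifi204 was not detected. With a pseudocount of 32 only Mndal and Ifi203 were past it, and since that contrast chose the genes nothing is read from the count. The fibroblast marker values given above hold for Aim2 as well, and their part was not tested.

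**Figure D3:**
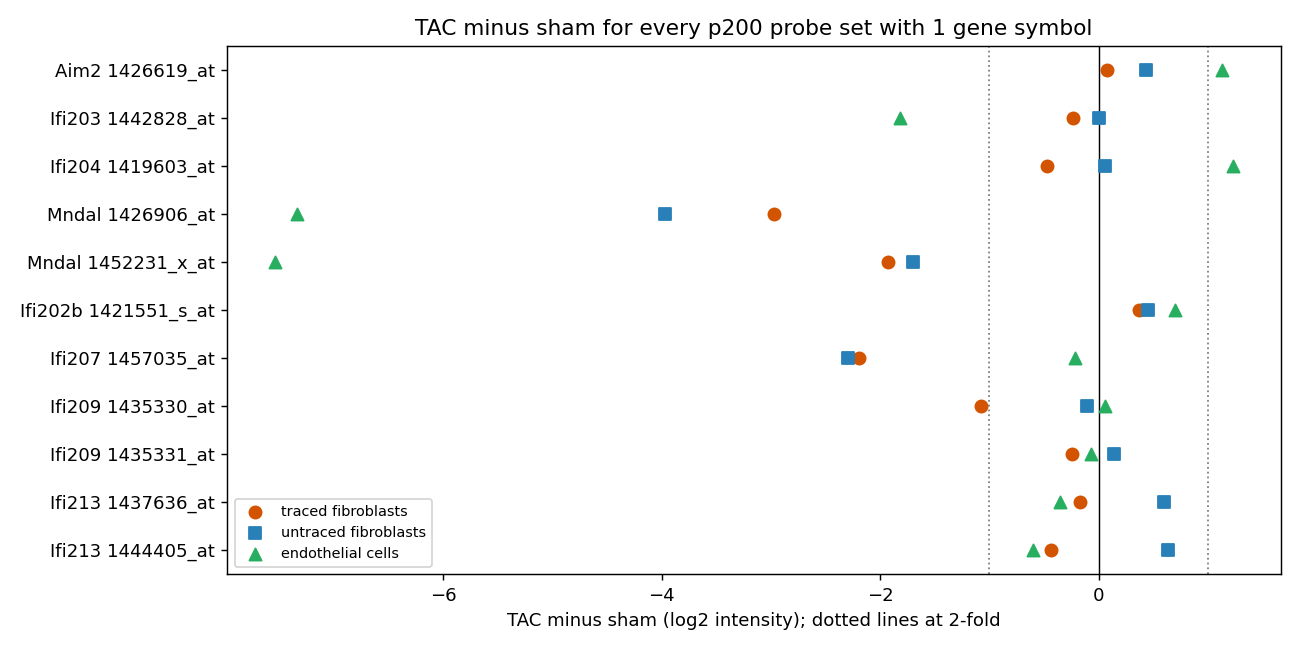
TAC minus sham (log2 intensity, x axis) for the 11 p200 probe sets with 1 symbol (y axis), members above and other p200 genes below, with circles for traced fibroblasts, squares for untraced fibroblasts and triangles for endothelial cells, and dotted lines at 2-fold. Mndal and Ifi207 lie left of the 2-fold line in both fibroblast populations, while Aim2, Ifi203 and Ifi204 lie within it there.

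The members were also compared between the Tie2cre lineage and the other fibroblasts. At least 2-fold lower in traced than in untraced fibroblasts at both surgeries were 0.0344% of detected genes, and 0.0344% were at least 2-fold higher. None of the 4 measured members was among them, and Ifi203 was not detected in fibroblasts. Aim2 was -0.69 after TAC and -0.34 after sham, traced minus untraced, and Ifi204 -0.61 and -0.08. Ifi203 was 0.02 and 0.26 at levels within background.

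For levels in fibroblasts against endothelial cells, the traced and untraced arrays of a surgery were averaged, which leaves 2 values per cell type, 1 for each surgery, and 2 residual degrees of freedom in limma. The spread behind each p-value is that between surgeries, which may be more or less than that between mice. The fit includes the endothelial TAC array with its fibroblast markers, and 4 of 10 fibroblast markers and 9 of 10 endothelial markers passed in their own cell type. Of 26945 probe sets tested, 10.7% passed as higher in fibroblasts and 8.78% as higher in endothelial cells, at an adjusted p under 0.05 and at least 2-fold. Ifi204 was higher in fibroblasts, with a mean of 8.63 in fibroblasts and 4.77 in endothelial cells, which is a difference of 3.86 ± 0.456 (SE; limma, Benjamini-Hochberg adjusted p = 0.00901). The call held under every alternative that kept the probe set, with limma adjusted p between 0.00122 and 0.0143. The endothelial mean is a background level, so the size of the difference rests on dim values. The Ifi204 probe set passed the filter through the fibroblast arrays alone, where it is high, so its adjusted p is not independent of that choice. Without the filter the limma adjusted p was 0.0130.

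Aim2 averaged 8.29 in fibroblasts and 7.33 in endothelial cells and did not pass (difference 0.96 ± 0.432 SE, limma adjusted p = 0.179). Without the endothelial TAC array, with its fibroblast markers, the difference was 1.52 and passed (limma adjusted p = 0.0344), on the assumption that the lone endothelial value varies like the fibroblast values. Ifi203, on its dim set 1442828_at, averaged 5.68 in fibroblasts and 6.63 in endothelial cells and did not pass either (difference -0.95 ± 0.623 SE, limma adjusted p = 0.323). Without the endothelial TAC array its difference was -1.86 (limma adjusted p = 0.0204), and without the endothelial sham array it was -0.04 (limma adjusted p = 0.941). The 3 brighter sets that list Ifi203 with other loci are given without a test. They read 8.65 to 11.85 in endothelial cells and 5.93 to 7.30 in fibroblasts, so the result of 1442828_at does not stand for them. Mndal, which the endothelial TAC array chose, is given without a test: its brighter set averaged 7.53 in fibroblasts and 6.76 in endothelial cells.

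Of the 12 other p200 names in the gene list, 4 genes had a probe set of their own. Ifi207, a pyrin and HIN gene beside Ifi204, was lower after TAC in fibroblasts. It read 6.36 after TAC against 8.55 after sham in traced fibroblasts, and 6.34 against 8.64 in untraced fibroblasts, which is 4.58-fold and 4.90-fold lower. In endothelial cells it read 3.44 after TAC against 3.66 after sham, both below background. Its fibroblast TAC levels lay above the silent percentile and below both sham levels.

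Ifi202b, the Aim2 inhibitor, was a little higher after TAC on every pair of arrays. It read 10.61 after TAC against 10.24 after sham in traced fibroblasts, 11.07 against 10.62 in untraced fibroblasts and 9.46 against 8.76 in endothelial cells. None of these differences reached 2-fold. Ifi209 and Ifi213 stayed below the silent percentile on all 6 arrays, on both probe sets of each gene.

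Ifi207 and Ifi202b were both higher in fibroblasts than in endothelial cells. Ifi207 averaged 7.47 in fibroblasts and 3.55 in endothelial cells, a difference of 3.92 ± 0.752 (SE; limma adjusted p = 0.0272), and the call was lost with a single endothelial array (limma adjusted p = 0.0665 without the TAC and 0.0898 without the sham array) and with a pseudocount (0.0541). The endothelial levels of Ifi207 lay below the silent percentiles of 6.41 (TAC) and 7.08 (sham), and its fibroblast TAC levels of 6.36 and 6.34 did not exceed 6.41, so the size of the difference rests on dim values. The Ifi207 probe set passed the filter through the fibroblast sham arrays alone, so its adjusted p is not independent of that choice. Without the filter it was 0.0387 (limma). Ifi202b averaged 10.63 in fibroblasts and 9.11 in endothelial cells, a difference of 1.53 ± 0.344 (SE; limma adjusted p = 0.0406), which was lost without the endothelial sham array (1.18, limma adjusted p = 0.103).

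Along the chromosome, the p200 genes differed in size and direction. In fibroblasts Ifi207 and Mndal were lower after TAC, while Ifi204, which lies between them, differed by -0.47 and 0.06. In endothelial cells, the contrast that chose Mndal, the measured genes Ifi204, Mndal and Ifi203 stood at 1.23, -7.54 and -1.82, with Aim2 at 1.13 and Ifi202b at 0.70. Ifi204 lay below the silent percentile on both endothelial arrays, and its difference was 0.56 with the pseudocount of 32. Mndal and Ifi203 after TAC and Aim2 after sham lay below that percentile too. Of the 10 nearest genes outside the cluster that had a probe set, 5 on each side, 0 differed at least 2-fold in endothelial cells or in both fibroblast populations. Of all detected genes, 10.9% were higher and 1.83% lower in endothelial cells, and 4.33% and 1.79% in both fibroblast populations. Crp, Apcs, Olfr16, Fcer1a, Mptx1 and Kmo lay below the silent percentile on all 6 arrays. Fh1 alone lay above it on both endothelial arrays, so the count of 0 says little about the other neighbours. The differences of the 10 neighbours ran from -1.02 (Fcer1a, an IgE receptor gene, in traced fibroblasts) to 0.97 (Fh1, the fumarase gene, in endothelial cells).

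**Figure D4:**
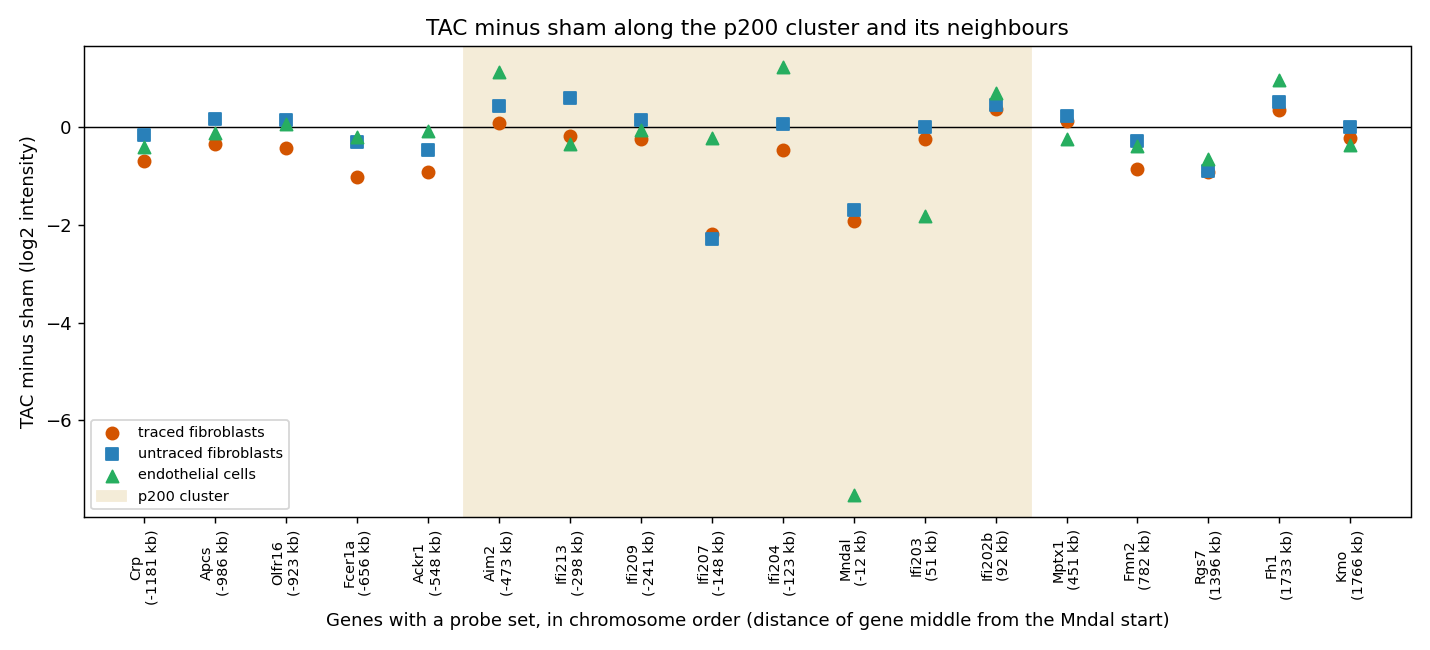
TAC minus sham (log2 intensity, y axis) for genes with a probe set in chromosome order (x axis, with the distance of each gene's middle from the Mndal start), the p200 cluster shaded, circles for traced fibroblasts, squares for untraced fibroblasts and triangles for endothelial cells. Mndal, Ifi207 and Ifi203 stand low inside the cluster, and the 10 neighbours outside, most of them at background levels, lie between -1.02 and 0.97.

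Other genes that interferon induces were set beside the p200 genes. Of 20 detected interferon-stimulated genes, 2 were at least 2-fold higher after TAC in both fibroblast populations (4.33% of all detected genes were) and 0 lower (1.79%), with a median difference of 0.35 beside 0.05 for all detected genes. Cxcl10, a chemokine gene, was 2.94 and 2.43 higher in traced and untraced fibroblasts, and Rsad2, an antiviral enzyme gene, 1.84 and 1.62. In endothelial cells 1 of 20 was at least 2-fold higher (10.9% of all detected genes), Cxcl10 at 1.91, and the median was -0.25 beside 0.18 for all detected genes. Between cell types, 6 of 21 genes of this list were higher in endothelial cells, beside 8.78% of all probe sets tested (limma, adjusted p under 0.05 and at least 2-fold), with a median difference of -1.06.

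Of 17 detected genes of the interferon receptors and their signalling, 1 was at least 2-fold higher in both fibroblast populations (4.33% of all detected genes), Usp18, a feedback inhibitor of the interferon receptor, at 1.67 and 1.29, and the median was 0.16. In endothelial cells 0 of 16 reached 2-fold, beside 10.9% of all detected genes higher and 1.83% lower, and the median was 0.02. Of 16 detected genes of the inflammasome and DNA sensing list, 1 was at least 2-fold higher in both fibroblast populations, near the 4.33% of all detected genes: Sting1, the adaptor of cytosolic DNA sensing, at 1.93 and 1.72. In endothelial cells 2 of 13 were, near the 10.9% of all detected genes, the cytokine gene Il1b at 1.82 and the DNA sensor gene Cgas at 1.08, and Sting1 stood at 0.87. The endothelial sham level of Il1b, 6.04, lay below the silent percentile. List medians were 0.08 in fibroblasts and 0.34 in endothelial cells. The partners of Aim2, named for their role, were within 2-fold: Pycard at 0.63, 0.35 and 0.89 in traced fibroblasts, untraced fibroblasts and endothelial cells, and Casp1 at -0.04, -0.28 and -0.40.

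The list of p53, Rb and nucleolar genes, whose products p200 proteins are known to bind or act on, had 2 of 12 genes at least 2-fold higher in both fibroblast populations (4.33% of all detected genes) and 2 of 12 in endothelial cells (10.9%). Both counts consist of Rbl1, a relative of Rb, at 2.25 and 2.60 in traced and untraced fibroblasts and 1.57 in endothelial cells, and E2f1, a cell cycle transcription factor, at 1.43, 1.41 and 2.47. Rbl1 lay below the silent percentile on all 3 sham arrays (5.62 traced, 5.80 untraced and 7.04 endothelial), so the sizes of its differences rest on dim values. The medians of the list were 0.35 in fibroblasts and 0.41 in endothelial cells. All these lists were chosen with earlier results of these data known.

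**Figure D5:**
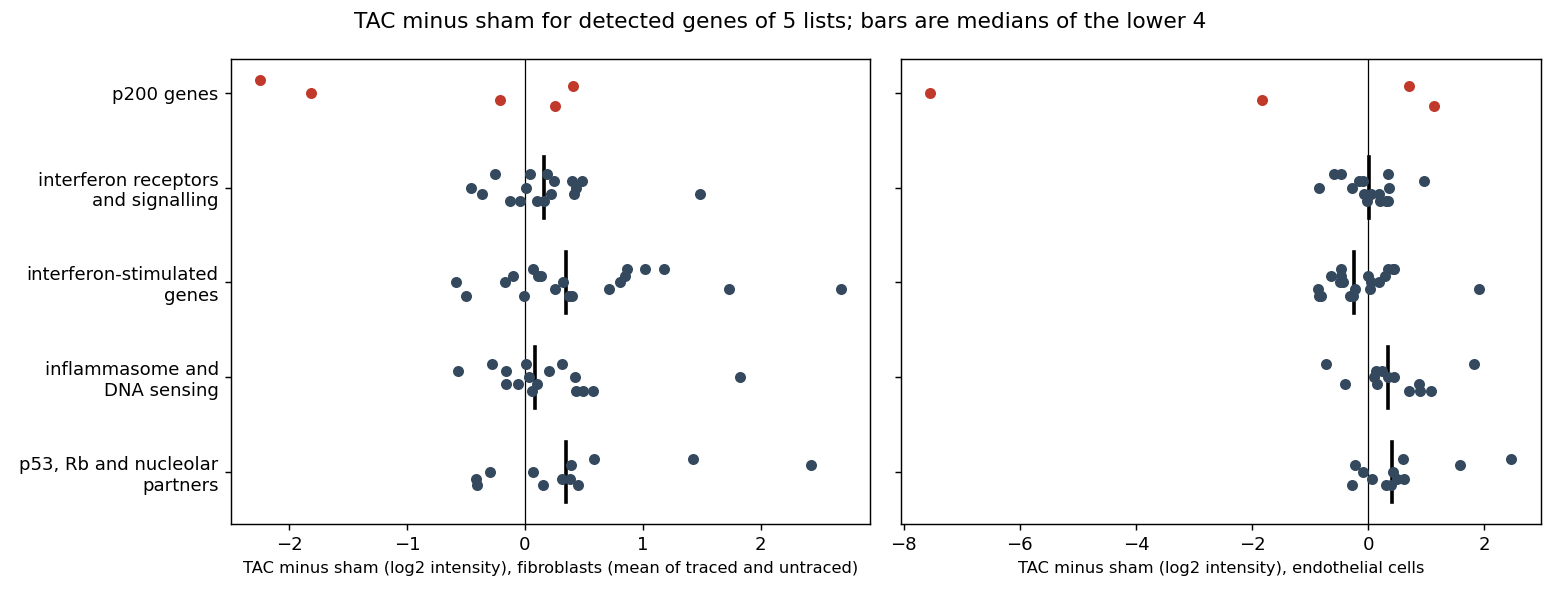
TAC minus sham (log2 intensity, x axes) in fibroblasts (left, mean of traced and untraced) and endothelial cells (right) for detected genes of 5 lists (y axis), 1 point per gene, with the p200 genes in red and bars at the medians of the other 4 lists. In endothelial cells the p200 points run from -7.54 (Mndal, in the contrast that chose it) to 1.13. The interferon-stimulated genes run from -0.86 to 1.91 there, with their median at -0.25.

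The genes whose levels over the 6 arrays were most like those of the brighter Mndal set were sought by Pearson's r among 2823 detected genes with a range of at least 2 log2 units. They were Ecm2, a matrix protein gene (r = 0.92), Phf1, a chromatin reader gene (0.80), the transcription factor genes Zbtb16 (0.77) and Dbp (0.75), and Gm26504 (0.75). The 6 arrays are 3 cell populations at 2 surgeries, and r rests largely on the 2 endothelial arrays, so it is a description. Ecm2 read 7.41 after TAC against 10.03 after sham in endothelial cells, a difference of -2.62, and differed by -0.69 and -0.39 in traced and untraced fibroblasts.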

How the data were processed

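Expression was measured in 6 samples of sorted mouse cells, 1 array each, from 200 ng of total RNA. The authors deposited an intensity for each probe set, made with RMA, per the submitters' processing notes, a method that subtracts background, normalizes between arrays and summarises probes. They run from 3.82 to 37205 and so are on a linear scale. No source used here names the software version. RMA is known to draw differences of dim probe sets towards 0. The number of arrays limits the precision.

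From these values log2 was taken with no further normalization. Gene symbols of the platform annotation were updated through Entrez identifiers (99.4% of identifiers found in the RefSeq table for GRCm38.p6). Of the probe sets 34958 had 1 symbol, 932 several and 9211 none. A gene was represented by its probe set with the highest mean, and counted as detected when above its own array's median on at least 1 array compared. The fibroblast and endothelial levels were tested by limma 3.58.1 (R 4.3.3, lmFit and eBayes with Benjamini-Hochberg adjustment), without the 64 control probe sets. The fit was also run on simulated data with independent values of equal spread. The real values are averaged fibroblast arrays beside single endothelial arrays, so that run does not vouch for the p-values. Other comparisons have 1 array per group and a 2-fold threshold, with no test. The members and lists were chosen with earlier results of these data known. Named genes were all p200 genes with a probe set, up to 4 genes past 2-fold per list by mean absolute difference, the 5 most like Mndal and the 5 nearest neighbours on each side. Col1a1 falls under the markers. Ptprc, Adgre1, Itgam, Lyz2, Laptm5 and C1qb were named after their values were seen, and so was Cyp26b1, while Pycard and Casp1 were named for their role beside Aim2. Alternatives were the filter, the pseudocount of 32, quantile normalization, the choice of probe set, a surgery block, the fold threshold and leaving out an endothelial array.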

Additional observations from a re-analysis of the deposited data

Results flagged for a closer look

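Among the genes named by rule from the lists and markers, 5 had both fibroblast populations on one side of 0 and endothelial cells on the other in TAC minus sham, and the difference between cell types was not tested for any of them. Rsad2 was 1.84 and 1.62 in traced and untraced fibroblasts and -0.23 in endothelial cells. Cx3cr1, a monocyte chemokine receptor gene, was -1.55 and -1.93 in fibroblasts and 0.14 in endothelial cells, and Tyrobp, a myeloid adaptor gene, was -0.56 and -0.42 against 1.15. Of the cardiomyocyte markers, Myh6 was 0.01 and 0.21 in fibroblasts and -1.32 in endothelial cells, and Actc1 was 1.74 and 1.49 against -0.24. None of the 4 measured p200 members showed this pattern. Cx3cr1 lay below the silent percentile on both endothelial arrays (5.98 after TAC and 5.84 after sham), and Tyrobp did on the endothelial sham array (6.23). Myh6 was not detected in fibroblasts, so the sides of 0 of these 3 genes rest partly on dim values.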

How the results depend on the processing

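No paired analysis was possible because every group has the replicate number 1 alone, so the numbers pair no samples. Fibroblast and endothelial values of a surgery can be paired by surgery: with the surgery as a block, limma called 4334 probe sets higher in fibroblasts and 3465 higher in endothelial cells, and the calls of Ifi204, Ifi207, Ifi202b, Aim2 (adjusted p = 0.0507) and Ifi203 kept their side of the threshold. Of 61 single values under an alternative, 50 kept their side of the threshold or moved by less than 0.29, the spread of the sham lineage difference, and 0 turned direction. Mndal in fibroblasts was -1.81 with the brighter set, -2.64 with the mean of both and -3.47 with the other set, and in endothelial cells -5.24 with the pseudocount. With the pseudocount 2 of the 4 members, in place of 4, were past 2-fold in endothelial cells. With the upper quartile as filter, the genes at least 2-fold higher after TAC in both fibroblast populations numbered 256 in place of 503, and in endothelial cells 621 were higher and 132 lower in place of 1213 and 204. With a fold threshold of 1.5 they numbered 1035 higher and 565 lower in fibroblasts, and 2746 higher and 852 lower in endothelial cells. Quantile normalization gave 307 lower in endothelial cells. In an alternative chosen after seeing the data, untraced fibroblasts alone gave 340 lower in place of 208. The limma counts with the upper quartile as filter were 1774 (higher in fibroblasts) and 1541 (higher in endothelial cells), in place of 2896 and 2365. Leaving out 1 endothelial array gave 1623 to 3592 higher in fibroblasts and 1448 to 2693 higher in endothelial cells, the low values being those without the sham array. Fewer probe sets enter the fit under the stricter filter, and the cause of the other shifts was not tested. Levels below the silent probe sets limit the values of the Ifi203 set 1442828_at in fibroblasts and of the Ifi204 set 1419603_at in endothelial cells.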

Other observations

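A further 6 probe sets of the family are listed with several symbols, p200 genes or other loci, and were assigned to no gene. The set listed with Mndal, Ifi211, Ifi205 and Ifi204 read 5.45 after TAC against 9.62 after sham in endothelial cells. In traced fibroblasts it read 9.35 after TAC against 10.79 after sham, and in untraced fibroblasts 9.78 against 10.63. The set listed with Ifi211 and Ifi205, read 4.70 against 6.40 in endothelial cells, 9.28 against 11.11 in traced fibroblasts and 9.67 against 11.13 in untraced fibroblasts. Both sets were lower after TAC in both fibroblast populations. In endothelial cells the first set was lower too, with its TAC level below the silent percentile of 6.41. The Ifi211 and Ifi205 set lay below the silent percentiles of 6.41 (TAC) and 7.08 (sham), so its endothelial levels could not be told from background.

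Of the 3 sets listed with Ifi203 together with its pseudogene and other loci, the one with the largest difference, 1448775_at, read 8.65 after TAC against 11.61 after sham in endothelial cells, while its 4 fibroblast levels lay between 5.93 and 7.11. The other sets, 1425008_a_at and 1451567_a_at, read 10.46 against 11.85 and 10.09 against 10.81 in endothelial cells. All 3 were lower after TAC in endothelial cells, with differences of -2.96, -1.39 and -0.72. The set shared by Ifi202b and another locus read 8.85 after TAC against 8.06 after sham in endothelial cells and was higher after TAC in all 3 populations.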
